A study of Homo sapiens with 4 samples.

Results

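Pericentromeric EZH2 peaks were the deposited peaks of HEK293 cells whose midpoint lay inside a centromere band of the hg19 band table (the bands stained acen) or within 2 Mb of one. They were taken on chromosomes 1 to 22 without chromosome 19. The H3.1-WT list had 1223 such peaks and the H3.1-K27M list 1185, together 2408 of 31077 and 35016 peaks in all. On the same 21 autosomes the lists held 28233 and 27783 peaks, so the pericentromeric windows held 4.33% of the H3.1-WT peaks and 4.27% of the H3.1-K27M peaks. The windows measured 178.0 Mb, of which 94.0 Mb were centromere bands and 84.0 Mb flanks, and made up 6.31% of the length of these chromosomes.

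The study mapped EZH2 by CUT&RUN, in which a nuclease tethered through an antibody cuts out the DNA around the target protein for sequencing. HEK293 is an established human embryonic kidney line. Both groups were infected with lentivirus, selected with G418 and treated with doxycycline to induce either unmutated histone H3.1 (H3.1-WT) or H3.1 with methionine in place of lysine 27 (H3.1-K27M). Each genotype had 1 EZH2 library and 1 control library made with the anti-rabbit HRP secondary antibody alone, 4 libraries in total. The promoter of the construct, the number of clones and the share of mutant among all H3 are not given in the sources used here. For the H3.1-K27M pair the sample titles say H31, and the mutation was taken from the genotype label. With 1 library per group there is no replicate spread, so no difference between the genotypes was tested, and the values describe these lists.

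EZH2 is the catalytic subunit of Polycomb repressive complex 2, which methylates lysine 27 of histone H3. The K27M histone lacks that lysine and is known to inhibit the complex. Centromeres consist of long arrays of alpha satellite, and the pericentromeric DNA beside them carries other satellites and many segmental duplications. The short arms of the acrocentric chromosomes also carry ribosomal RNA genes. The hg19 assembly leaves most of the satellite arrays as unsequenced gaps, so their reads have nowhere to align except to the few copies that the assembly holds. Such collapsed copies gather reads in treated and control libraries alike, whether or not the protein is bound there.

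Per Mb of band table length, the centromere bands held 3.60 H3.1-WT and 3.73 H3.1-K27M peaks. The flanks held 10.5 and 9.93, and the rest of the 21 autosomes 10.2 and 10.1. The longest stretch without a peak of either list was at least 3 Mb in each of the 21 windows. These stretches ranged from 3.06 Mb on chromosomes 7 and 8 to 9.55 Mb on chromosome 1 and added up to 90.0 Mb. On some chromosomes, such as 1, 9 and 13, the stretch reached the edge of the window. Peaks were thus spread unevenly within the windows. Outside these stretches the windows held 13.9 H3.1-WT and 13.5 H3.1-K27M peaks per Mb, over 88.0 Mb. The stretches were chosen for holding no peak, so leaving them out raises the density by itself. Band table length includes unsequenced gaps, whose extent was not analysed here, so the lower density of the bands does not measure a depletion. The choice of 2 Mb as the edge fell on no step in density: at 1.5 to 2 Mb from the bands there were 11 and 9.48 peaks per Mb, and at 2 to 2.5 Mb 9.48 and 10.4.

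The pericentromeric peaks were much like other peaks in fold enrichment, which is the authors' linear ratio of EZH2 reads to the background of their caller. Its median was 3.37 (H3.1-WT) and 3.31 (H3.1-K27M), against 3.43 and 3.36 in the rest. They were somewhat wider, with a median of 860 and 876 bases against 774 and 810. The H3.1-WT peaks covered 1561 kb and the H3.1-K27M peaks 1725 kb. The H3.1-K27M list thus had 0.969 times the number of peaks and 1.1 times the covered length, close to the 0.985 and 1.05 times of the rest of the autosomes. Without chromosome 6 the covered length was 0.976 times that of H3.1-WT, so the larger covered length in H3.1-K27M rested on that chromosome.

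Most calls were not shared between the genotypes, in the pericentromeric windows as over all 21 autosomes. At least 1 base of overlap was found for 499 of 1223 H3.1-WT peaks, 40.8% (95% Wilson interval 38.1% to 43.6%), where 34.5% of all H3.1-WT peaks on the 21 autosomes were overlapped. Of the H3.1-K27M peaks 469 of 1185 were overlapped, 39.6% (36.8% to 42.4%), where the value for all 21 autosomes was 34.8%. In the rest of the autosomes, with the windows taken out, the shares were 34.3% (33.7% to 34.8%) and 34.6% (34.1% to 35.2%). These intervals cover no more than counting error and take each peak as a separate draw, although neighbouring peaks can belong to 1 broad domain. When an overlap of at least 50% of both peaks was required, 17.9% of the H3.1-WT and 18.5% of the H3.1-K27M pericentromeric peaks were shared.

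Counted in bases, sharing was also more extensive in the windows than elsewhere. Peaks of the other list covered 44.6% of the H3.1-WT bases and 40.5% of the H3.1-K27M bases, against 32.4% and 30.8% in the rest. Bases in both lists made up 26.9% of the bases in either, against 18.8% in the rest. When both lists were merged, 1892 regions resulted. Peaks from both genotypes were present in 452 (23.9%), while 724 (38.3%) came from the H3.1-WT list alone and 716 (37.8%) from the other. In the rest the shares were close to these, with 20.2% of 44050 regions in both, 40.3% from H3.1-WT alone and 39.5% from H3.1-K27M alone. The median width was 2024 bases for regions of both genotypes, 628 for H3.1-WT alone and 710 for H3.1-K27M alone, against 1839, 628 and 712 in the rest. Merging by itself lengthens regions that hold peaks of both. Of the 58 regions of at least 5 kb, 57 (98.3%) held peaks of both genotypes, against 870 of 965 (90.2%) in the rest, so wide regions were mostly shared in both. The other was a region of H3.1-K27M alone in 6q12, at chr6:64810786-64816876 (6091 bases, fold enrichment 3.44, −log10 q 1.83).

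Overlap rose with the strength of a call in both genotypes. In the class with a −log10 q of 1 to 1.5, 24.6% of H3.1-WT peaks were overlapped, against 20.7% of equally strong peaks in the rest. At 2 to 5 the shares were 49.0% and 41.3%, and at 10 and over 35 of 35 pericentromeric peaks were overlapped (100%, interval 90.1% to 100%), against 98.5%. Among H3.1-K27M peaks, 22.8% were overlapped at 1 to 1.5, against 20.3%. At 2 to 5 the shares were 59.9% and 58.9%. At 5 to 10 the windows were no longer above the rest, with 72.0% against 76.2% for H3.1-WT and 92.6% against 96.0% for H3.1-K27M. In the strongest H3.1-K27M class 9 of 12 were overlapped (75%, 46.8% to 91.1%), against 123 of 124 (99.2%) in the rest.

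**Figure D1:**
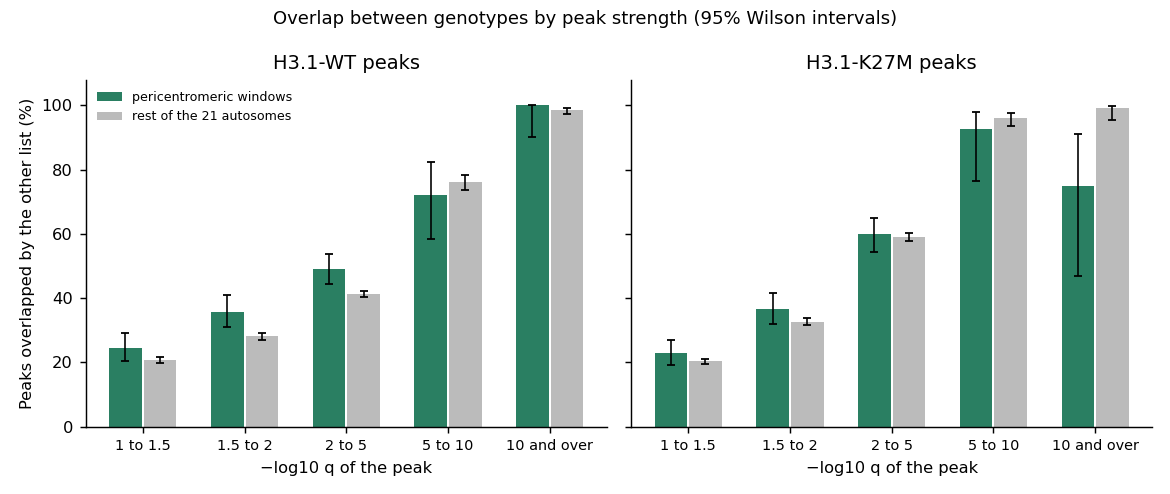
Percent of peaks overlapped by at least 1 base of a peak of the other list, by −log10 q class of the peak, in the pericentromeric windows and in the rest of the 21 autosomes, with 95% Wilson intervals. The share rose with strength in each panel except for the strongest pericentromeric H3.1-K27M peaks, of which 9 of 12 were overlapped.

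Strong peaks, those with a −log10 q of at least 5, numbered 85 in H3.1-WT (6.95% of the pericentromeric peaks, against 6.82% of all H3.1-WT peaks on the 21 autosomes). In H3.1-K27M they numbered 39 (3.29%, against 2.12%). The number in H3.1-K27M was 0.459 times that in H3.1-WT (exact 95% interval 0.306 to 0.678), where the rest of the autosomes had 550 against 1840, or 0.299 times (0.271 to 0.329). The intervals overlap and, since they take peaks as independent while each genotype had 1 library and peaks cluster, no difference between windows and rest can be drawn from them.

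For each peak the authors' caller gave both a fold enrichment and a p-value. From these an implied background was computed, the mean number of background reads at which a count of fold times that mean has the deposited p under a Poisson distribution. A peak with a low fold and a very small p has a high implied background, meaning that reads were dense there also in the control or in the caller's local estimate. It is an estimate from 2 deposited values that may each be averages over the peak, and not a count of HRP reads. In the rest of the autosomes it was narrowly distributed, with a median of 4.27 reads (H3.1-WT) and 4.25 reads (H3.1-K27M) and a 99th percentile of 6.13 and 5.62. Pericentromeric peaks had nearly the same median, 4.39 in both genotypes, but a 99th percentile of 85.8 and 157 and a maximum of 656 and 1655 reads. The excess was thus in the upper part of the distribution. The 95th percentile was already 7.79 and 8.52 reads in the windows, against 5.16 and 4.93 in the rest.

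An implied background of at least 10 reads, called high in the following, was found for 41 H3.1-WT peaks (3.35%, against 0.336% of all H3.1-WT peaks on the 21 autosomes). In H3.1-K27M it was found for 40 peaks (3.38%, against 0.263%). The windows, with 4.33% and 4.27% of the peaks, held 43.2% of the high-background peaks of H3.1-WT and 54.8% of those of H3.1-K27M. Inside the centromere bands the shares were 7.99% and 7.41%, and in the flanks 1.58% and 1.68%. The share fell with distance from the bands, from 3.65% and 3.48% within 0.5 Mb to 0% and 0.503% at 1.5 to 2 Mb. It was 0% in both lists at 2 to 2.5 Mb, and 0.251% and 0.126% at 2.5 to 5 Mb. On chromosomes 1, 9 and 16 the long-arm flank held no peak, so every long-arm peak there counted as the rest. Among these were H3.1-WT peaks with 252 reads in 9q13 and 71.4 reads in 1q21.1. With a minimum of 6 reads in place of 10, 10.1% of the pericentromeric peaks of either genotype counted as high, against 1.18% and 0.613% of the rest.

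**Figure D2:**
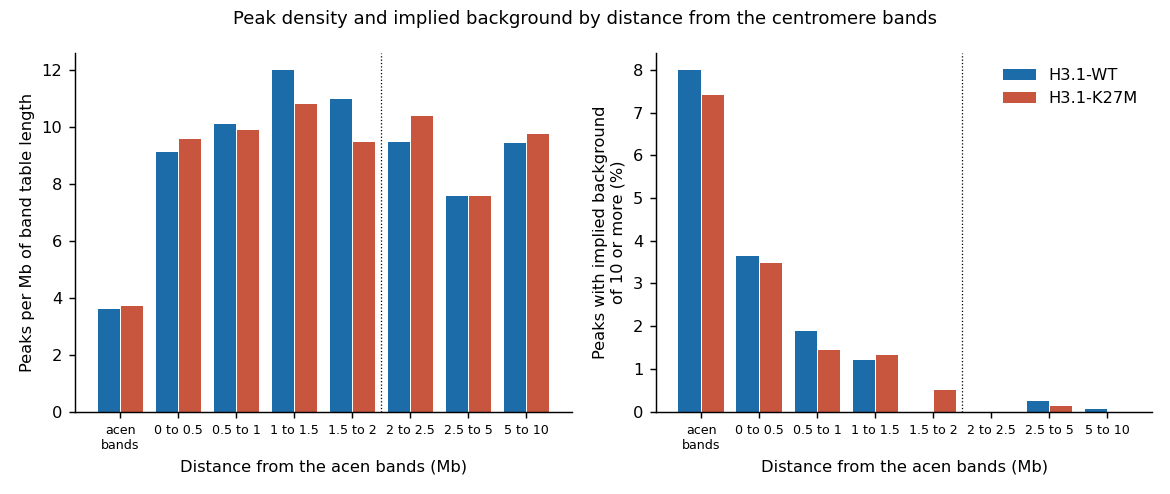
Peaks per Mb of band table length (left) and percent of peaks with an implied background of at least 10 reads (right) by distance from the centromere bands in Mb, with 1 bar per genotype and a dotted line at the 2 Mb edge of the windows. Density per band table length, unsequenced gaps included, was lowest inside the bands, at 3.60 and 3.73 peaks per Mb. The share of high implied background was largest there, at 7.99% and 7.41%.

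**Figure D3:**
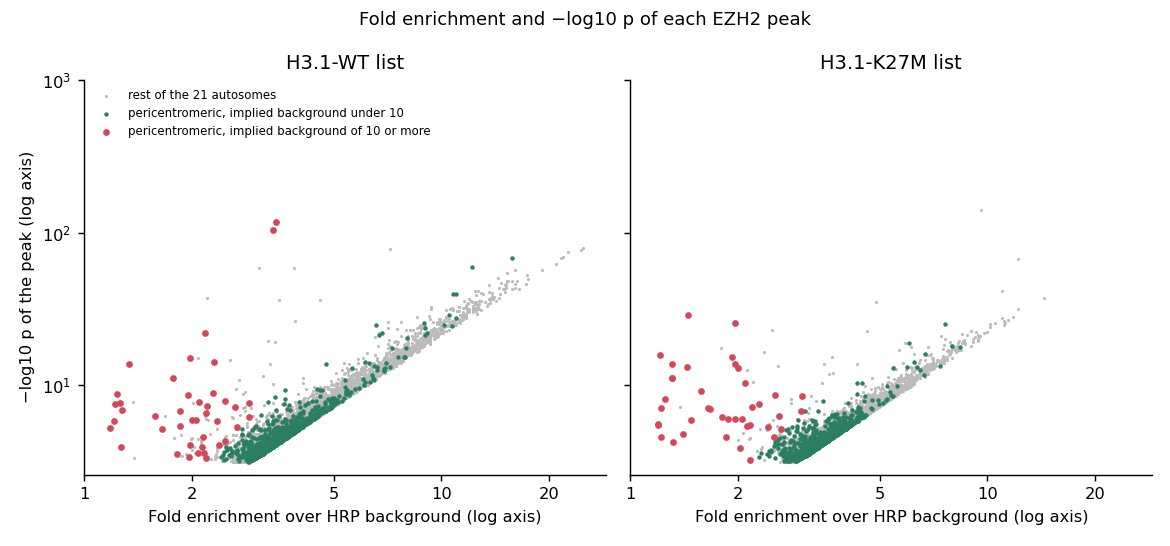
Fold enrichment over the HRP background against −log10 p of each peak on log axes, for H3.1-WT (left) and H3.1-K27M (right), with the rest of the 21 autosomes in grey, pericentromeric peaks in green and those with an implied background of at least 10 reads in red. The red points, 41 and 40 peaks, lie to the left of the main band, at a low fold for their p-values. That position follows from their definition, since the implied background was computed from fold and p.

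Within the windows a larger share of high-background peaks was overlapped than of the others. Of the 41 in H3.1-WT 29 were overlapped (70.7%, 55.5% to 82.4%), and of the 40 in H3.1-K27M 31 (77.5%, 62.5% to 87.7%). Among the remaining pericentromeric peaks 470 of 1182 (39.8%, 37.0% to 42.6%) and 438 of 1145 (38.3%, 35.5% to 41.1%) were overlapped. High-background peaks in the rest were overlapped in 31 of 54 cases (57.4%, 44.2% to 69.7%) for H3.1-WT and 31 of 33 (93.9%, 80.4% to 98.3%) for H3.1-K27M, so the windows were above the rest in the former and below it in the latter, with overlapping intervals. Because they were few, the high-background peaks made up 5.81% and 6.61% of the overlapped peaks and 4.96% and 5.17% of the shared bases. The other 95% and 94.8% of the shared bases lay in peaks of ordinary implied background. With the high-background peaks removed from both lists, 39.6% and 38.2% of pericentromeric peaks were overlapped and the bases in both lists were 26.2% of the bases in either. The overlap between genotypes was thus nearly as large without peaks of at least 10 reads. With a minimum of 6 reads the class held more of the overlapped peaks, 86 of 499 for H3.1-WT and 73 of 469 for H3.1-K27M. The overlap without peaks of at least 6 reads was not computed. Neither minimum measures duplicated sequence whose background is ordinary, and the share of peak bases in satellites or segmental duplications was not analysed here.

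Among strong calls the high-background peaks weighed more, which is in part built in. At a given fold the implied background rises with −log10 p, and strong calls are chosen by −log10 q, which goes with p. High-background peaks made up 11 of the 85 strong H3.1-WT peaks (12.9%), and for H3.1-K27M 15 of 39 (38.5%). In the rest they were 18 of 1840 (0.978%) and 15 of 550 (2.73%), against 0.200% and 0.124% of all peaks there. Without them H3.1-WT was left with 74 strong peaks and H3.1-K27M with 24, or 0.324 times as many (exact 95% interval 0.196 to 0.520). In the rest the same step gave 1822 and 535, or 0.294 times (0.266 to 0.324). The value for the windows was thus lower and nearer that of the rest once the high-background peaks were left out, with the same limit on the intervals. Of the 5 strong H3.1-K27M peaks without an H3.1-WT partner, 4 were of this kind. They lay in 7q11.21 at chr7:61969503-61970466 (fold 1.21, implied background 1655 reads), 8p11.21 at chr8:43094807-43096928 (fold 1.45, 699 reads), 2p11.1 at chr2:92305738-92306135 (fold 1.44, 324 reads) and 8q11.1 at chr8:46852425-46852704 (fold 1.58, 129 reads). The other, 300 bases in 2p11.2 at chr2:89180111-89180410, had a fold of 7.96 and an ordinary implied background of 4.06 reads. Of the 85 strong H3.1-WT peaks 14 had no partner. Among these 14, 0 had a high background (range 3.38 to 5.48 reads), which says little about so few. At a −log10 q of 5 to 10, 36 of 50 H3.1-WT peaks in the windows were overlapped, against 904 of 1187 in the rest. At 10 and over it was 35 of 35 against 643 of 653. For H3.1-K27M the counts were 25 of 27 against 409 of 426, and 9 of 12 against 123 of 124.

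The densest high-background cluster lay inside the centromere band 2p11.1, at chr2:92305738-92325899, 20.2 kb long. It held 5 H3.1-WT peaks with folds of 1.18 to 1.28 and implied backgrounds of 375 to 656 reads, and 7 H3.1-K27M peaks with folds of 1.2 to 1.44 and 324 to 664 reads. Of these, 5 of 5 and 6 of 7 were overlapped by the other list. The cluster lay at the edge of the longest peak-free stretch of chromosome 2, which began at 92325900.

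The most extended high-background cluster was in 4p11, also inside the centromere band, at chr4:49246817-49338719. Each list had 10 high-background peaks there, 10 of 10 overlapped in both directions, with folds of 1.95 to 2.68 in H3.1-WT and 1.81 to 3.01 in H3.1-K27M. Their implied background was 10.6 to 49.4 and 10.3 to 45.8 reads. The median spacing of the peaks was 6.44 kb for H3.1-WT and 6.10 kb for H3.1-K27M. Peaks of lower implied background lay at the start of the cluster, 7.30 and 8.48 reads for H3.1-WT and 6.93 for H3.1-K27M, and at its end, 5.61 reads in H3.1-K27M.

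**Figure D4:**
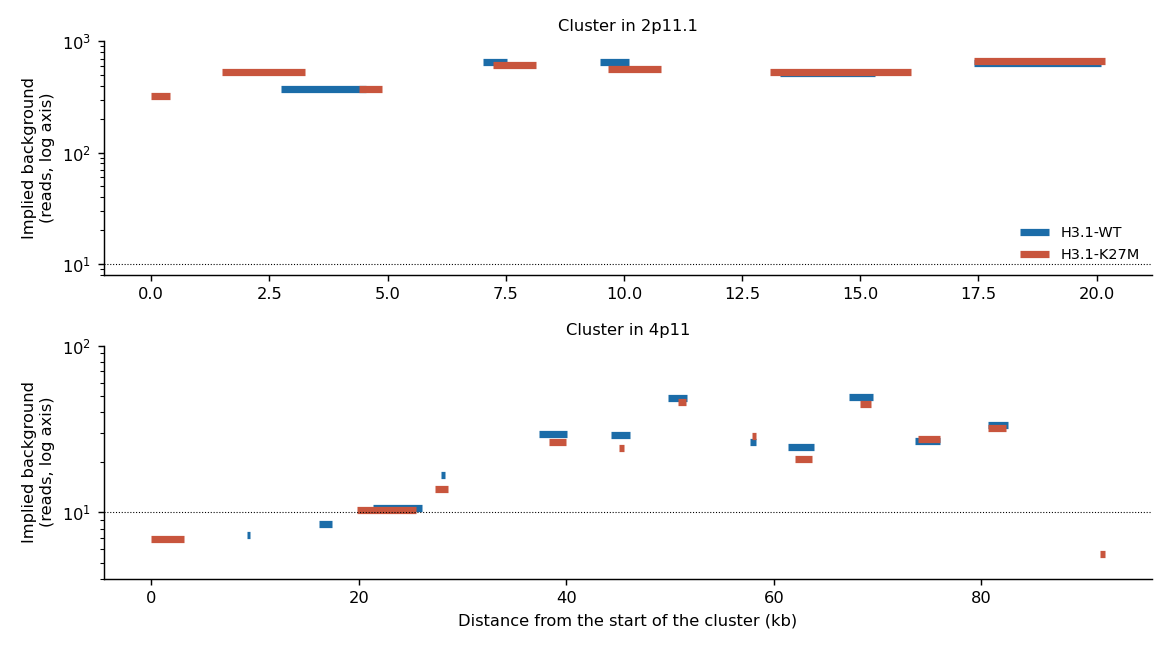
Implied background in reads (log axis) of each peak against the distance in kb from the start of the cluster, for the clusters in 2p11.1 and 4p11, with 1 bar per peak as long as the peak and a dotted line at 10 reads. High backgrounds reached 324 to 664 reads in 2p11.1 and 10.3 to 49.4 in 4p11, and peaks of the lists overlapped in part, over 58.8% of the H3.1-K27M bases in 2p11.1 and over 63.6% (H3.1-WT) and 70.2% (H3.1-K27M) of the bases in 4p11.

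Smaller groups of the same kind were found on 3 other chromosomes. In 10q11.21, at chr10:42527563-42541923, there were 2 H3.1-WT peaks of 490 and 551 reads and 3 H3.1-K27M peaks of 119 to 575 reads. In 20q11.21, at chr20:29625857-29650671, 4 H3.1-WT peaks and 1 H3.1-K27M peak had a high background, and 1 of the 4 was overlapped. In 16p11.2, at chr16:33942332-33964302, high backgrounds came with the strongest q values: the H3.1-WT peak at chr16:33962858-33964302 had a −log10 q of 99.7 at a fold of 3.37 and 137 reads, and its H3.1-K27M partner a −log10 q of 21.9 at a fold of 1.96 and 156 reads.

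The pericentromeric peak with the largest −log10 q also had a high background. It lay on the short arm of the acrocentric chromosome 21, in 21p11.2 at chr21:9827032-9827557, with a −log10 q of 112, a fold of 3.44 and an implied background of 146 reads in H3.1-WT. The overlapping H3.1-K27M peak, at chr21:9827111-9828983, had a −log10 q of 12, a fold of 1.93 and 96.3 reads. At 21p11.2, chr21:9695889-9696523, a further pair had folds of 1.77 and 1.48 and implied backgrounds of 95.6 and 111 reads. The H3.1-WT peaks at chr21:9827032-9827557 and chr16:33962858-33964302 had the largest −log10 q values of the windows. The next, with −log10 q values of 64.3 and 55.7, were the H3.1-WT peaks of highest fold enrichment, both on chromosome 2. A −log10 q of at least 20 was reached by 13 peaks in H3.1-WT, of which 2 had a high background. In H3.1-K27M it was reached by 3 peaks, of which 2 had a high background. In the rest of the autosomes the counts of high background were 7 of 202 for H3.1-WT and 2 of 15 for H3.1-K27M.

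The widest and most enriched peaks had implied backgrounds under 10 reads, as most peaks did. In 2p11.1, at chr2:91657476-91678453, a peak of 20978 bases had a fold of 12.2 and an implied background of 6.86 reads in H3.1-WT. Its H3.1-K27M partner at chr2:91657698-91679171 was 21474 bases long with a fold of 7.63 and 6.22 reads, and the pair had 20756 bases in common. In 2p11.2, at chr2:90437845-90458754, the H3.1-WT peak of 20910 bases had the highest fold of the windows, 15.8, with 5.31 reads, and the H3.1-K27M peak of 17314 bases a fold of 6.05 with 6.98 reads. Further peaks of chromosome 2 lay at chr2:91987916-92003399 (15484 bases, fold 10.8) and chr2:92226997-92238036 (11040 bases, fold 11). Both were overlapped by H3.1-K27M peaks, over 81.1% and 100% of their length. The fold values of the lists depend on depth and scaling and are given side by side only.

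Of the 10 widest peaks of each list, 10 of 10 were overlapped in either genotype. None had a high implied background, which with shares of 3.35% and 3.38% over all pericentromeric peaks says little about so few. Wide peaks were mostly overlapped elsewhere too: of those of at least 5 kb, 31 of 31 H3.1-WT and 42 of 43 H3.1-K27M peaks (97.7%) in the windows were overlapped, against 454 of 471 (96.4%) and 569 of 647 (87.9%) in the rest. For the 10 widest the overlap covered 81.1% to 100% of the H3.1-WT peaks and 60.5% to 100% of the H3.1-K27M peaks. The backgrounds were raised slightly: 22.6% of H3.1-WT and 20.9% of H3.1-K27M peaks of at least 5 kb had at least 6 reads, against 1.06% and 0.927% of such peaks in the rest. The chromosome 2 peaks, with 5.31 to 8.08 reads among the widest of H3.1-WT, were above the 95th percentile of wide peaks elsewhere in that list, 4.88 reads. So was the 6p11.2 peak at chr6:58137846-58151154, with 5.05 reads. In contrast, the 6q12 peaks among the widest of H3.1-WT had 4.15 and 4.14 reads. The wide peak of 5p12 at chr5:44382877-44392776 (9900 bases, fold 9.0) had 3.94 reads, and its H3.1-K27M partner of 12420 bases (fold 8.39) 3.69 reads. Whether the modest rise in the chromosome 2 and 6p11.2 peaks goes with duplicated sequence was not tested.

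Chromosome 6 held the most pericentromeric peaks, 219 (17.9%) for H3.1-WT and 287 (24.2%) for H3.1-K27M, and 0 of them had a high background. They covered 288 kb and 483 kb. The widest H3.1-K27M peak of the windows lay there, 26111 bases in 6q12 at chr6:63542118-63568228 with a fold of 4.36 and 4.11 reads. It spanned the whole of an H3.1-WT peak of 11839 bases at chr6:63550897-63562735 (fold 3.81, 4.15 reads). The density was high on that chromosome also outside the window, 21.6 and 21.8 peaks per Mb in the rest of chromosome 6 against 25.5 and 33.4 in the window. Chromosome 5 likewise had more peaks in H3.1-K27M, 141 against 92.

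Other chromosomes went the opposite way. The window of chromosome 17 had 61 H3.1-WT and 29 H3.1-K27M peaks, that of chromosome 18 had 49 and 26, and that of chromosome 20 had 52 and 28. Over the 21 windows the number was higher in H3.1-K27M on 7 and lower on 13, with ratios of 0.475 to 1.53, and the covered length was higher on 9. The window of chromosome 9 had the fewest peaks, 5 and 4. High-background peaks were concentrated on chromosome 4, with 12 in each list, and chromosome 2, with 10 and 9. Without these 2 chromosomes their shares were 1.82% and 1.83%.

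**Figure D5:**
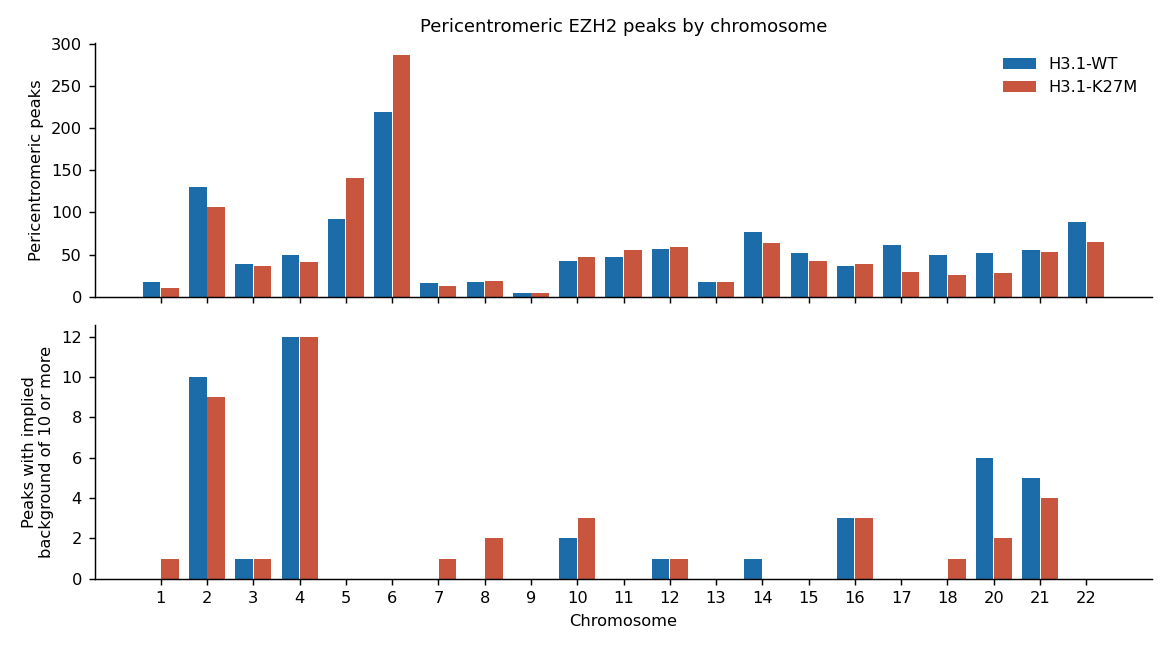
Number of pericentromeric peaks (top) and number of those with an implied background of at least 10 reads (bottom) by chromosome, with 1 bar per genotype. Chromosome 6 held the most peaks, 219 and 287, and no peak of high background, whereas chromosome 4 held 12 high-background peaks in each list and chromosome 2 held 10 and 9.

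When peaks of both lists within 10 kb were grouped, 980 clusters resulted, of which 12 had at least 20 kb covered by 1 of the lists. There were 4 of these on chromosome 2, 4 on chromosome 6 and 2 on chromosome 14, and they accounted for 19.6% of the H3.1-WT and 22.6% of the H3.1-K27M covered length. The covered length was larger in H3.1-K27M in 10 and in H3.1-WT in 2. The same count was not made in the rest of the autosomes, so this is not a trait shown for the windows. Peaks of at least 5 kb were more numerous in H3.1-K27M in both, 43 against 31 in the windows and 647 against 471 in the rest. The only one of the 12 with high-background peaks was that of 4p11. In the cluster of 6q12 at chr6:63542118-63601549, 9 H3.1-WT peaks covered 37591 bases and 4 H3.1-K27M peaks 48128 bases, with 35933 bases in common. A second cluster of 6q12, at chr6:64627208-64725994, was the least shared, with 10 and 15 peaks and 22.2% and 12.5% of their bases in common. Both had ordinary implied backgrounds, with a largest value of 5.19 reads.

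Regions of a single genotype were narrower. High backgrounds were found in 12 of the 724 of H3.1-WT and 9 of the 716 of H3.1-K27M, against 31 of the 452 regions of both genotypes. In the rest of the autosomes the counts were 23 of 17756, 2 of 17386 and 34 of 8908. None of the 5 widest of either genotype had a high background, which says little about so few. For H3.1-WT alone the widest regions were led by 6q12 at chr6:64637030-64641397 (4368 bases, fold 3.50, 4.25 reads) and 5q11.1 at chr5:50692613-50696365 (3753 bases, fold 4.04, 3.96 reads). For H3.1-K27M alone 6q12 at chr6:63800236-63805176 (4941 bases, fold 3.58, 4.39 reads) followed the region of 6091 bases given above. All 10 such regions, 5 per genotype, had fold enrichments of 3.37 to 5.02, and 7 of them lay on chromosome 6. The medians of all pericentromeric peaks were 3.37 (H3.1-WT) and 3.31 (H3.1-K27M). The value of 5.02 was that of a strong H3.1-WT peak in 6p11.2 at chr6:57084166-57087717 (−log10 q 5.47).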

How the data were processed

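CUT&RUN for EZH2 was analysed in HEK293 cells, with 1 EZH2 and 1 HRP library per genotype. Per the submitters' processing notes, the tools included MACS2, Picard, deepTools, cutadapt and Bowtie2 2.3.5.1, and the build was hg19. Parameters and the treatment of reads with several alignments are not given in the sources used here. The authors deposited 1 list of broad peaks per genotype, each called on 1 EZH2 library against its HRP library. The values deposited for a peak are its fold enrichment, a linear ratio over the background of the authors' caller, and −log10 p and −log10 q values, also given by the authors' caller. The lowest deposited −log10 q was 1.01 for H3.1-WT and 1.00 for H3.1-K27M. Depth is unknown, since the lists hold no read counts, and it affects how many peaks a caller finds and their p-values.

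The acen bands were read from the cytoband file in circlize 0.4.16. Positions are 1-based in hg19, and 0 peaks ended past a chromosome end. An overlap of 1 base or more counted. Regions were formed by merging both lists, and clusters by joining peaks within 10 kb. Shares have 95% Wilson intervals and ratios of counts exact 95% intervals. No test between genotypes was made. The implied background was solved numerically from fold and p. A first form with a pseudocount had no solution for most weak peaks and was dropped, and low-fold cutoffs were also looked at. The measure and its minimum of 10 reads were chosen after seeing the data, and so were the values without chromosome 6 and without high-background peaks. Overlap and the numerical solution were tested on simulated data, which does not test the averaging of fold and p over a peak. Named regions were the 10 widest and the 5 most enriched peaks of each list, the 5 widest regions of each single genotype, clusters with at least 20 kb covered and the values per chromosome. High-background and strong unshared peaks were named after their values were seen. The members and lists were chosen with earlier results of these data known. Neither the hg19 genome nor its repeat or gene annotation was used, so sequences, satellites, duplications and genes were not analysed here. Software versions were bedtools 2.31.1, scipy 1.17.1, pandas 2.3.3, numpy 2.4.6 and matplotlib 3.10.9 under Python 3.11.15.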

Additional observations from a re-analysis of the deposited data

How the results depend on the processing

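The ratio of peak numbers, H3.1-K27M over H3.1-WT, was 0.969 and turned to 1.04 inside the centromere bands alone and 1.02 with a flank of 1 Mb. It was 0.680 at a −log10 q of at least 2, 0.459 at 5 and 0.878 with peaks within 5000 bases joined. The ratio of covered length, 1.1, turned to 0.905 when −log10 q had to reach 2, 0.650 at 5 and 0.976 without chromosome 6. The overlapped share of H3.1-WT peaks, 40.8%, was 43.8% with a flank of 1 Mb, 34.2% at a −log10 q of at least 2, 31.8% at 5 and 17.9% with a reciprocal overlap of 50%. For H3.1-K27M peaks, 39.6% became 47.8% at a −log10 q of at least 2, 69.2% at 5, 18.5% with the reciprocal overlap, 46.7% with joined peaks and 42.4% without chromosome 6. The q minimum was applied to both lists, so it also thinned the list looked up. Bases in both lists, 26.9% of those in either, were 29.6% and 22.9% with flanks of 1 and 5 Mb, 31% and 40.3% for −log10 q minima of 2 and 5, and 30.7% with joined peaks. The other 25 values stayed on the same side of 1, or within their interval or 10% of the value, among them all 5 without high-background peaks. The alternative of counting repeated k-mers was not run, since it needs the hg19 sequence. No paired analysis was possible because each genotype had 1 EZH2 library and no test was made. Depth could not be examined, and a peak missing from 1 list may lie just under the caller's threshold.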

Other observations

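Strong pericentromeric peaks of H3.1-WT without an H3.1-K27M partner, 14 of 85, were 293 to 3552 bases wide. The strongest were in 2p11.1 at chr2:91844799-91845380 (582 bases, fold 5.38, −log10 q 7.89), 16p11.2 at chr16:33817344-33817670 (327 bases, fold 6.5, −log10 q 7.75) and 4q12 at chr4:53727900-53728702 (803 bases, fold 6.31, −log10 q 7.48). Their −log10 q values ended at 7.89, well under those of the strongest shared peaks.

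Strong shared peaks of ordinary background also lay outside chromosome 2. In 10q11.21, at chr10:43248355-43251746, the H3.1-WT peak had a fold of 11 and an implied background of 3.71 reads, and the overlapping H3.1-K27M peak a fold of 7.35 and 3.43 reads. In 22q11.21, at chr22:19136160-19138638, and 4p12, at chr4:46388827-46395042, H3.1-WT peaks with folds of 10.5 and 10.7 had 4.23 and 3.39 reads, and both were overlapped by H3.1-K27M peaks.

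Outside the windows the highest implied backgrounds of H3.1-WT were in 9q13 at chr9:66833035-66834294 (fold 1.37, 252 reads), 2q21.2 at chr2:133025235-133030620 (fold 2.21, 152 reads) and 1p22.2 at chr1:91852783-91853103 (fold 3.08, 94.9 reads). These regions were chosen after their values were seen.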
